A study of Mus musculus with 4 samples.

Results

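A group of 10 chemokine genes was followed in mouse muscle: Ccl2, Ccl6, Ccl7, Ccl8, Ccl9, Ccl11, Cxcl1, Cxcl12, Cxcl14 and Cx3cl1. They were taken by gene symbol, without a filter on expression, and each of the 10 symbols stood on 1 of the 37305 rows of the deposited gene table. The samples were 4 RNA libraries of a muscle labelled GTN from C57BL/6 mice, 2 of genotype Con-TD (F and G, called controls here) and 2 of genotype MCK-TD (A and B). Neither the labels nor the design text names an allele, transgene, promoter, age or sex, expands either genotype name, or says whether a library is 1 animal or a pool. The spread behind each p-value is therefore that of these libraries alone and may be technical, and an unrecorded batch cannot be told apart from the genotype.

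Chemokines are small secreted proteins that bind G protein-coupled receptors and draw leukocytes along a concentration gradient. Their families are named for the spacing of the first conserved cysteines, as CC, CXC and CX3C. In injured or stressed muscle, resident macrophages, endothelial cells, fibro-adipogenic progenitors and the fibres themselves can make them, and CC chemokines that act on the receptor Ccr2 bring in blood monocytes. Cxcl12 and Cxcl14 belong to the constitutively made chemokines, which are present in resting tissue.

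Abundance is given as FPKM, fragments per kilobase of transcript scaled to the mapped fragments of the library, as computed by the authors, so levels can be set side by side between genes. Tests used limma on log2(FPKM + 1) over the 12474 rows with a mean of at least 1 FPKM, and a gene is said to have risen, fallen or been called at a Benjamini-Hochberg adjusted p under 0.05. Group values are given as mean ± SD (n = 2), and changes are MCK-TD minus Con-TD. The relative depth of the libraries was 0.934 to 1 of that of Con-TD F, and the absolute depth is unknown. Genes of the muscle fibre were the most abundant markers in all libraries, with Acta1, skeletal actin, at 18474 and 17088 FPKM in Con-TD and 12240 and 11779 in MCK-TD. In bulk tissue, fewer cells of a type and less RNA per cell cannot be told apart.

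The 10 genes split in direction. Ccl2, Ccl7, Ccl8 and Ccl6 rose in MCK-TD, Ccl9 and Cxcl12 fell, and Ccl11, Cxcl14 and Cxcl1 were not called. Cx3cl1 lay below the filter and was not tested. Of all rows tested, 24.3% were called higher and 6.45% were called lower, and the median change of all rows was 0.22 on the log2 scale against 0.62 for the 9 chemokine genes tested. That middle value is the change of Cxcl1, which was not called, and the median was -0.46 without Con-TD G and 1.10 without Con-TD F. It was 0.36 and 0.34 with median of ratios and quantile scaling, and -0.54 over the 6 of these genes with a mean of at least 5 FPKM. Without any filter, both MCK-TD libraries lay above both Con-TD libraries for 5 of the 10 genes and below them for 4. Over the 25620 rows with a value above 0 in any library the same held for 40.6% and 17.3%. The summed level of the 10 genes was 132 and 104 FPKM in Con-TD F and G and 108 and 101 in MCK-TD A and B, so the groups overlapped in the total while they differed in its composition.

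**Figure D1:**
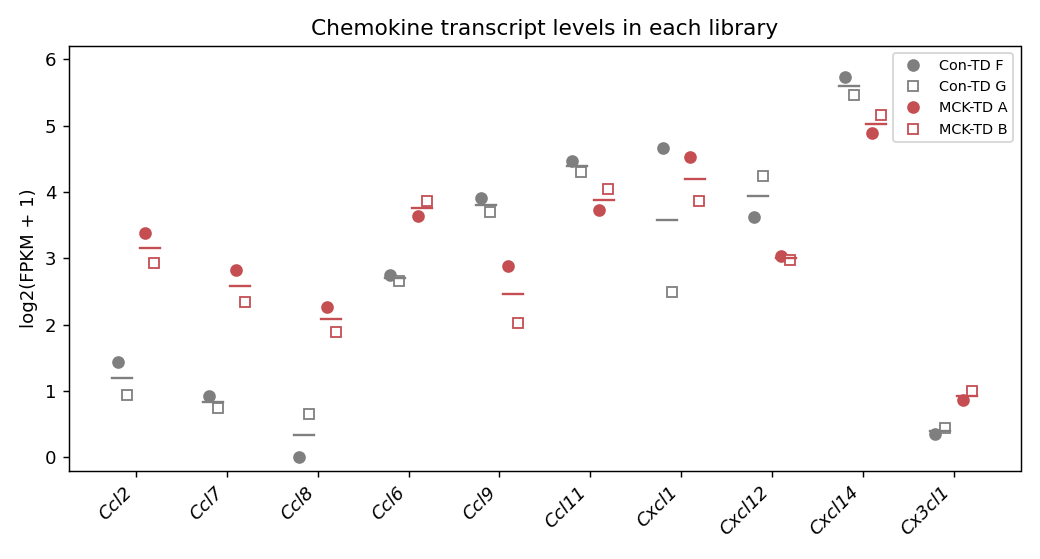
Level of each chemokine gene as log2(FPKM + 1) in the 4 libraries (grey: Con-TD, red: MCK-TD; filled: libraries F and A, open: G and B; bars: group means, n = 2). Ccl2, Ccl7, Ccl8, Ccl6 and Cx3cl1 lie higher in both MCK-TD libraries, Ccl9, Ccl11, Cxcl12 and Cxcl14 lie lower, and Cxcl1 overlaps.

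Upstream sequences are shown for members that moved in opposite directions or varied widely. RefSeq promoters on GRCm38.p6 were matched for 7 of the 10 genes by symbol (Ccl6, Ccl8, Ccl9, Cx3cl1, Cxcl1, Cxcl12 and Cxcl14), a newer build than the mm9 of the expression values. Each run below is the 120 bases before the annotated start, 5′ to 3′ on the gene's strand. Capitals mark a match on either strand to the TATA box TATAAA, the AP-1 site TGANTCA or the NF-kB consensus. Ccl6, which rose, lies on the minus strand at chr11:83593088-83593207. Its neighbour Ccl9, which fell, lies on the minus strand at chr11:83578637-83578756. Ccl8, which rose, is at chr11:82115065-82115184 on the plus strand, and Cxcl1, which varied most between Con-TD libraries, at chr5:90891125-90891244 on the plus strand.
Ccl6: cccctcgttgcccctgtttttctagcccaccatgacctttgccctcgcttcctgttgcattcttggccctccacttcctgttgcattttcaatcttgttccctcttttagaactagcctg
Ccl9: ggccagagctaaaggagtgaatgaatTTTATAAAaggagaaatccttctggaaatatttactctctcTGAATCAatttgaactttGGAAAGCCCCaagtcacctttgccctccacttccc
Ccl8: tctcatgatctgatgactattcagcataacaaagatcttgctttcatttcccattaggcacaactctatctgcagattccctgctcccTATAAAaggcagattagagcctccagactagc
Cxcl1: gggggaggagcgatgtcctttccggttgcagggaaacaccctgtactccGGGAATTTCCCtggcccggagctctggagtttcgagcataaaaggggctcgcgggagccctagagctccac

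In Cxcl1 the 2 NF-kB matches overlap and come from 1 stretch that starts 71 bases before the start. Ccl9 held 1 NF-kB and 1 AP-1 match and 2 overlapping TATA matches, one on each strand. Ccl8 held 1 TATA match, 32 bases before its start, and so did Cx3cl1, 6 bases before its start. None of the 3 motifs was in the windows of Ccl6, Cxcl12 and Cxcl14, so Ccl9 and Cxcl12, which both fell, did not share a match. Among 32544 distinct promoter windows of the same length, 3.67% held the NF-kB consensus, 6.33% the TATA box and 3.40% the AP-1 site. A match is a description of letters and not of binding. In a local alignment of the full 300-base RefSeq promoters of Ccl6 and Ccl9, longer than the stretches printed, 74 columns aligned, of which 58 were identical (78.4%) and 7 were gaps.

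Ccl2, Ccl7 and Ccl8 are CC chemokines that attract monocytes and other leukocytes. Ccl2 and Ccl7 act on Ccr2, and mouse Ccl8 acts on Ccr8. Ccl2 stood at 1.70 and 0.924 FPKM in controls F and G, against 9.40 and 6.63 in MCK-TD A and B. Both MCK-TD libraries were well above both controls. The mean rose 6.11-fold, from 1.31 ± 0.548 FPKM in controls to 8.02 ± 1.96 (log2 change 1.97, SE 0.25, limma adjusted p = 0.0134). Without a filter Ccl2 was not called (adjusted p = 0.0574, range over all alternatives 0.00985 to 0.0902).

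Ccl7 stood at 0.903 and 0.669 FPKM in controls F and G, against 6.04 and 4.06 in MCK-TD libraries A and B. The groups again did not overlap, and the mean rose 6.43-fold (log2 change 1.74, SE 0.22, limma adjusted p = 0.0126). Ccl7 passed the filter through its level in MCK-TD, and without a filter it was not called (adjusted p = 0.0536, range over all alternatives 0.0077 to 0.0905). The ratio of Ccl2 to Ccl7 was 1.88 and 1.38 in the Con-TD libraries and 1.56 and 1.63 in the MCK-TD libraries, so the relation between these neighbouring genes stayed within the range of the controls.

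Ccl8 was listed at exactly 0 in Con-TD F and at 0.579 FPKM in Con-TD G, against 3.83 and 2.72 in MCK-TD A and B. It was the only member with a value of 0, and 42 tested rows were at 0 in Con-TD F alone. An exact 0 can be a failed estimate in this table, where 4 protein genes of the mitochondrial genome, among them mt-Co1, are at 0 in all 4 libraries, so no mean or fold is given for Ccl8 in Con-TD. Ccl8 passed the filter through its level in MCK-TD. It rose (log2 change 1.75, SE 0.30, limma adjusted p = 0.0217), and this size depends on the value added before taking logs. With 0.1 in place of 1 it was 3.68 and not called (limma adjusted p = 0.0506, range over all alternatives 0.0192 to 0.119). Without Con-TD F, the library with the 0, the change was 1.42 and not called (limma adjusted p = 0.0938), and without a filter it was not called either (adjusted p = 0.0778).

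Ccl6 and Ccl9 are rodent CC chemokines that act on Ccr1, are made mainly by macrophages and other myeloid cells, and lie side by side on chromosome 11. They moved in opposite directions. Ccl6 stood at 5.73 and 5.30 FPKM in controls F and G, against 11.5 and 13.6 in MCK-TD A and B. It rose 2.27-fold, from 5.51 ± 0.302 FPKM in controls to 12.5 ± 1.51, and on the log2 scale had the smallest SE of the 4 rising genes (log2 change 1.05, SE 0.13, limma adjusted p = 0.0124).

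Ccl9 stood at 14.0 and 11.9 FPKM in controls F and G, against 6.35 and 3.09 in MCK-TD A and B. It fell from 13.0 ± 1.5 to 4.72 ± 2.31 FPKM, a level 2.75-fold higher in Con-TD (log2 change -1.34, SE 0.32, limma adjusted p = 0.0418). Without a filter Ccl9 was not called (adjusted p = 0.131, range over all alternatives 0.0283 to 0.199). The MCK-TD libraries differed from each other by 0.85 on the log2 scale, and the change was -0.92 without MCK-TD B and -1.77 without MCK-TD A. The ratio of Ccl6 to Ccl9 was 0.408 and 0.445 in Con-TD and 1.81 and 4.41 in MCK-TD. Ccl9 was thus the more abundant of the pair in both controls and Ccl6 in both MCK-TD libraries. A share of 1.97% of the 50-base words of the Ccl9 transcripts also occurred in transcripts of other genes, and none of the other 9 members shared any. The reads were 50 bases long and single-end, per the series design text.

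**Figure D2:**
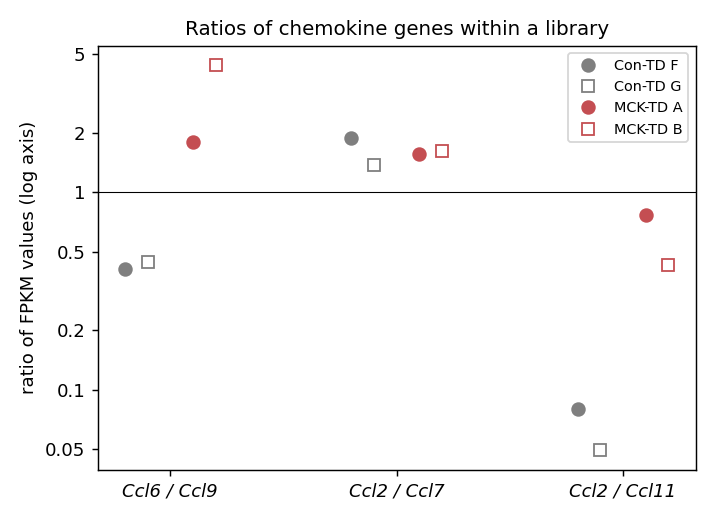
Ratio of the FPKM values of 2 chemokine genes in each library, on a log axis (grey: Con-TD, red: MCK-TD). The ratio of Ccl6 to Ccl9 lies below 1 in both Con-TD libraries and above 1 in both MCK-TD libraries, that of Ccl2 to Ccl7 overlaps between groups, and that of Ccl2 to Ccl11 is higher in MCK-TD.

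Ccl11, eotaxin, acts on Ccr3 and is known for attracting eosinophils. The gene lies between Ccl7 and Ccl12 on chromosome 11, in the same gene cluster as Ccl2 and Ccl8. Ccl11 stood at 21.2 and 18.7 FPKM in controls F and G, against 12.2 and 15.4 in MCK-TD A and B. Both MCK-TD values were below both controls, but the difference was not called (log2 change -0.50, SE 0.15, limma adjusted p = 0.0744). With median of ratios scaling it was -0.77 and called (adjusted p = 0.0341, range over all alternatives 0.0307 to 0.279). The ratio of Ccl2 to Ccl11 went from 0.0801 and 0.0494 in Con-TD to 0.767 and 0.429 in MCK-TD. Markers of eosinophils were listed at or near 0, a listing that does not show absence here, with the eosinophil peroxidase gene Epx listed at 0 in all 4 libraries and the 4 markers of that list that stood in the table summing to 0.014 and 0 FPKM in Con-TD and 0.0287 and 0.0430 in MCK-TD.

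Cxcl1 acts on Cxcr2 and attracts neutrophils. It stood at 24.2 and 4.61 FPKM in controls F and G, against 22.1 and 13.6 in MCK-TD libraries A and B. The highest and the lowest value both came from controls, and both MCK-TD values lay between them. The control libraries differed by 2.17 on the log2 scale, the widest gap within a group among the 10 genes, and the change was 0.62 (SE 0.78, limma adjusted p = 0.568). Its sign turned with the control used, from 1.71 without Con-TD F to -0.46 without Con-TD G. The 9 neutrophil markers summed to 20.2 FPKM in Con-TD F and 7.48 in Con-TD G, and to 12.8 and 12.7 in MCK-TD A and B. Con-TD F was the highest library for both Cxcl1 and this sum. S100a8 and S100a9 made up most of the sum, at 7.27 and 9.78 FPKM in Con-TD F. Not every marker had this order, and Retnlg was highest in MCK-TD B, at 2.84 FPKM. Camp, below the filter, was at 0.112 and 0.119 FPKM in Con-TD and 0.351 and 0.354 in MCK-TD. In the fit without a filter Camp was called higher (limma adjusted p = 0.0333). Mpo was lower in both MCK-TD libraries and was not called without a filter (limma adjusted p = 0.109). Of the 3 neutrophil markers that could be tested limma called 0, and 0 had an unadjusted p under 0.05, and the part of neutrophils in the Cxcl1 values was not tested.

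Cxcl12 acts on Cxcr4 and on the scavenging receptor Cxcr7, and holds progenitor cells in their niches. It stood at 11.4 and 18.0 FPKM in controls F and G, against 7.20 and 6.85 in MCK-TD libraries A and B. The MCK-TD libraries were close together, and both lay below the controls. Cxcl12 fell from 14.7 ± 4.67 FPKM in controls to 7.02 ± 0.247, a level 2.09-fold higher in Con-TD (log2 change -0.93, SE 0.23, limma adjusted p = 0.0478). This call is near the threshold, and it was lost without a filter (adjusted p = 0.137), without the intensity trend (adjusted p = 0.0540) and when values were rescaled without the 20 most abundant genes (0.0621) or without mitochondrial and small RNA genes (0.0648), with a range over all alternatives of 0.0281 to 0.218.

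Cxcl14 is made by stromal and epithelial cells in resting tissue. It was the most abundant of the 10 genes in both groups, at 52.2 and 43.1 FPKM in controls F and G, against 28.5 and 34.6 in MCK-TD libraries A and B. The groups did not overlap, but the difference was not called (log2 change -0.58, SE 0.16, limma adjusted p = 0.0597). It was called with median of ratios scaling (-0.86, adjusted p = 0.0324), with quantile normalization (0.0313) and over rows with a mean of at least 5 FPKM (0.0427), with a range over all alternatives of 0.0313 to 0.223. Cxcl14 made up 40.4% of the summed mean level of the 10 genes in Con-TD and 30.1% in MCK-TD.

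Cx3cl1, fractalkine, is a membrane-anchored chemokine that is shed by the proteases Adam10 and Adam17 and acts on Cx3cr1. It stood at 0.281 and 0.358 FPKM in controls F and G, against 0.812 and 0.991 in MCK-TD A and B. Both MCK-TD values lay above both controls, and the mean was 2.82-fold higher, at 0.902 ± 0.126 against 0.320 ± 0.0548 FPKM. In the fit without a filter the difference was 0.53 on the log2 scale and was not called (SE 0.08, limma adjusted p = 0.0627). Its level stayed below 1 FPKM in every library.

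**Figure D3:**
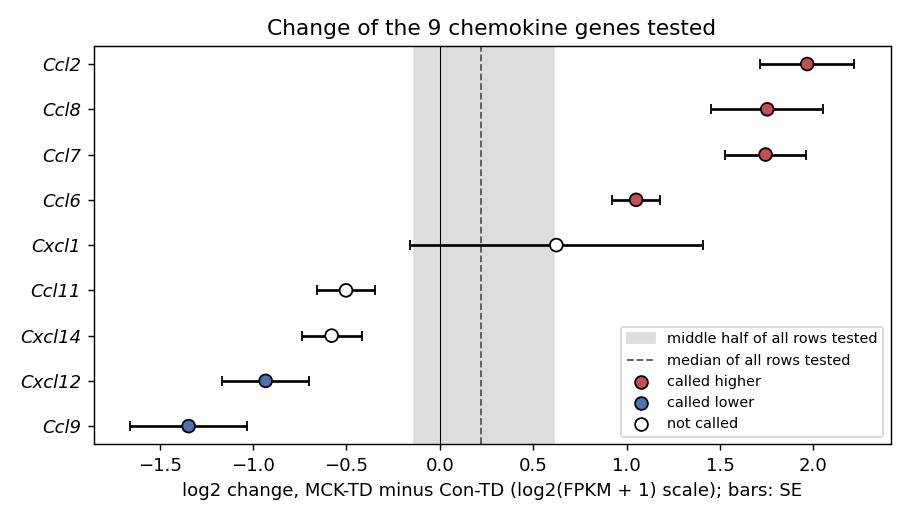
Log2 change (MCK-TD minus Con-TD, log2(FPKM + 1) scale) of the 9 chemokine genes tested, with bars of 1 SE. Red points rose, blue points fell and open points were not called, and the grey band spans the quartiles of all rows tested, from -0.14 to 0.61. Ccl2, Ccl7, Ccl8 and Ccl6 lie above the band, Cxcl1 at its upper edge, and Ccl11, Cxcl14, Cxcl12 and Ccl9 below it.

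The order of levels changed with genotype. By mean level in Con-TD, Cxcl14 came first, above every other gene in both libraries, and Ccl11 second, apart from Cxcl12. Cxcl12, Cxcl1 and Ccl9 followed, and Cxcl1 ranged so widely that it overlapped Ccl11, Cxcl12, Ccl9 and Ccl6. Ccl6, Ccl2 and Ccl7 came next in that order, each apart from the next. Cx3cl1 and Ccl8 were lowest and overlapped. In MCK-TD, Cxcl14 was again first and apart from the next gene. Cxcl1 overlapped Ccl11 and Ccl11 overlapped Ccl6. Ccl2 and Cxcl12 overlapped at the fifth and the sixth place. Below them Ccl9 overlapped both Ccl7 and Ccl8, which lay apart from each other, and Cx3cl1 was lowest. Ccl2 and Ccl7 together went from 1.11% and 0.667% of the summed mean level in Con-TD to 7.65% and 4.82% in MCK-TD.

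Most other chemokine genes were too low to test. Of 27 further chemokine genes, 26 stood in the table, 7 could be tested, 2 rose, 1 fell and 4 were not called, with a median change of 1.10. The shares over all rows tested were 24.3% higher and 6.45% lower, with a median change of 0.22. With only 7 genes tested, these counts do not set the list apart from all rows. That median of 1.10 is the change of Cxcl16. Cxcl10, a ligand of Cxcr3 induced by interferons, was at 0.575 and 0.000159 FPKM in Con-TD and at 4.75 and 3.64 in MCK-TD (log2 change 2.04, SE 0.29, limma adjusted p = 0.0151). Cxcl16, a membrane-bound ligand of Cxcr6, rose from 0.667 and 0.948 to 3.07 and 2.65 FPKM (adjusted p = 0.0172). Cxcl10 and Cxcl16 passed the filter through their level in MCK-TD, and without a filter neither was called (limma adjusted p = 0.0615 and 0.0558). Ccl27a fell from 3.01 and 3.05 to 0.0424 and 0.0312 FPKM (adjusted p = 0.00778), but near-identical copies of this gene exist in the mouse genome and its value is uncertain. Pf4, a platelet chemokine that macrophages also make, was at 2.65 and 7.40 FPKM in Con-TD and 12.4 and 9.0 in MCK-TD and was not called (adjusted p = 0.144). Ccl25, a chemokine of thymus and gut, was at 4.77 and 3.49 against 3.02 and 5.25 FPKM (adjusted p = 0.956).

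Of the 24 such genes with a value above 0, 14 were higher in both MCK-TD libraries and 3 lower, against 40.6% and 17.3% of all rows. The following neighbours of the 10 genes were picked after their values were seen. Ccl12, between Ccl11 and Ccl8, was at 0.623 and 0.160 FPKM in Con-TD and 1.57 and 4.54 in MCK-TD and was not called (adjusted p = 0.0726). Cxcl2, next to Cxcl1, was at 1.38 and 0.467 against 5.76 and 2.15 FPKM and was not called (adjusted p = 0.104). As with Cxcl1, G was the lower of the controls. Ccl3, next to Ccl6 and too low for the test, was at 0.148 and 0.0791 against 1.70 and 1.96 FPKM. Without a filter it was called higher (log2 change 1.35, SE 0.09, limma adjusted p = 0.0349).

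Receptors were lower still. Of 22 receptor genes, 3 could be tested, of which 1 rose and 0 fell by limma (1 and 1 at an unadjusted p under 0.05). The shares over all rows tested were 24.3% and 6.45%. Cxcr4, the receptor of Cxcl12, rose from 0.701 and 0.694 FPKM to 2.88 and 1.92 (log2 change 0.99, SE 0.20, limma adjusted p = 0.0309), whereas its ligand fell. Cxcr4 passed the filter through its level in MCK-TD, and without a filter it was not called (limma adjusted p = 0.0847). It was also not called under either median of ratios or quantile scaling. Cxcr7, the other receptor of Cxcl12 and the most abundant of the list, was at 9.98 and 11.9 FPKM in Con-TD and 7.30 and 4.75 in MCK-TD, both below the controls but not called (adjusted p = 0.0623). Over rows with a mean of at least 5 FPKM, where Cxcr7 was the only receptor tested, it was called lower. By median of ratios and by quantiles 1 receptor was also called lower. Without a filter Cxcr7 was not called (limma adjusted p = 0.161). Darc, which binds many chemokines on endothelium and red cells, was at 1.48 and 1.72 against 1.14 and 1.06 FPKM (adjusted p = 0.199). Ccr2, the receptor of Ccl2 and Ccl7, was at 0.147 and 0.221 FPKM in Con-TD and 1.36 and 1.08 in MCK-TD. Cx3cr1, the receptor of Cx3cl1, was at 0.0236 and 0.114 against 1.28 and 0.786 FPKM.

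Ccr2 and Cx3cr1 lay below the filter. In the fit without a filter Ccr2 was called higher (log2 change 0.91, SE 0.10, limma adjusted p = 0.0449) and Cx3cr1 was not (adjusted p = 0.0703). Ccr1 and Ccr3 were named after their values were seen. Ccr1, the receptor of Ccl6 and Ccl9, was at 0.0633 and 0.0846 FPKM in Con-TD and 0.480 and 0.335 in MCK-TD, and was not called without a filter (adjusted p = 0.0674). Ccr3, the receptor of Ccl11, was listed at 0 in 3 libraries and at 0.0430 FPKM in MCK-TD B. Of the 21 receptor genes with a value above 0, 11 were higher in both MCK-TD libraries and 4 were lower, against 40.6% and 17.3% of all rows.

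**Figure D4:**
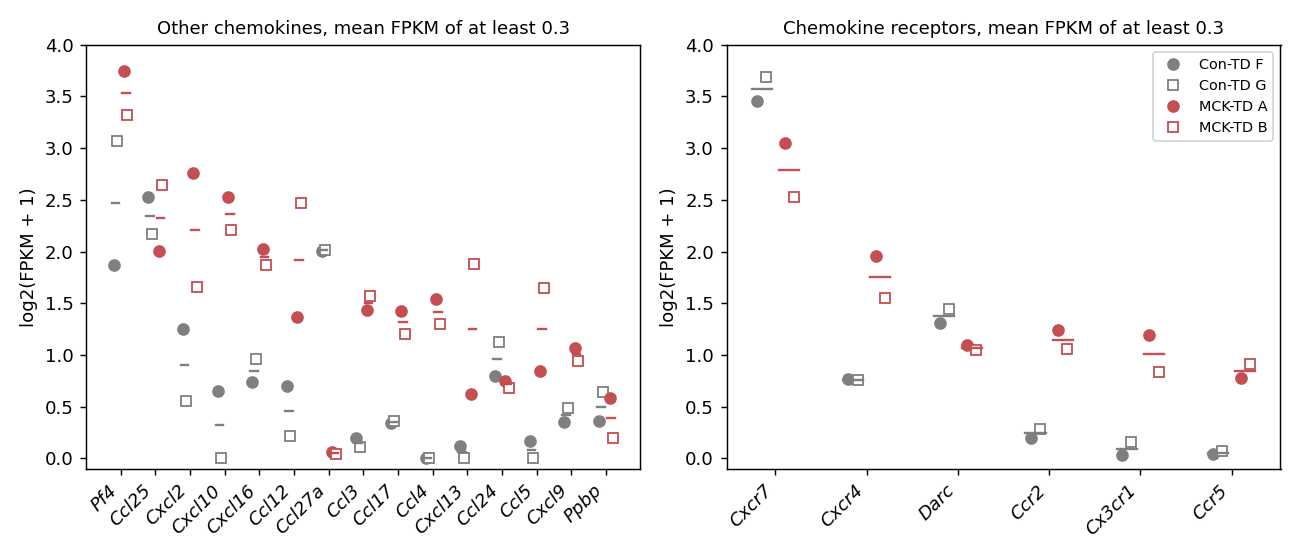
Levels as log2(FPKM + 1) of the 15 other chemokine genes (left) and the 6 receptor genes (right) with a mean of at least 0.3 FPKM, in the 4 libraries (grey: Con-TD, red: MCK-TD; bars: group means, n = 2). Cxcl10 and Cxcl16 lie higher in both MCK-TD libraries, Ccl27a and Cxcr7 lie lower, and Ccl25 overlaps.

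Among genes that process or present chemokines the share called higher was near that of all rows. Of 16 such genes 13 could be tested, 3 rose, 0 fell (also 0 at an unadjusted p under 0.05) and 10 were not called by limma (1 rose and 0 fell by median of ratios scaling, 1 and 1 by quantiles), with a median change of 0.34. Over all rows tested 24.3% rose, and the median was 0.22. Sdc4, a heparan sulphate proteoglycan of the cell surface, rose from 12.6 and 10.3 FPKM to 29.3 and 24.6 (limma adjusted p = 0.0138). Adam17, a sheddase of Cx3cl1, rose from 7.51 and 7.73 to 14.2 and 11.7 FPKM (adjusted p = 0.0270). Hs6st1, a heparan sulphate sulphotransferase, rose from 7.97 and 7.20 to 13.5 and 10.8 FPKM (adjusted p = 0.0424). Hspg2, perlecan, was at 21.2 and 34.1 against 34.6 and 34.0 FPKM (adjusted p = 0.332), and Mmp2, a protease that can cleave chemokines, at 12.2 and 17.9 against 8.02 and 11 (adjusted p = 0.131).

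Of 22 inflammatory signalling genes that can induce chemokines, 18 could be tested, 6 rose and 0 fell by limma (10 and 0 at an unadjusted p under 0.05), and the median change was 0.55 (3 rose with median of ratios scaling), against 24.3% higher, 6.45% lower and a median of 0.22 over all rows. Tnfrsf1a, a receptor of tumour necrosis factor, rose from 5.36 and 9.0 FPKM to 26.1 and 28.4 (log2 change 1.82, SE 0.25, limma adjusted p = 0.0141). The Toll-like receptors Tlr4 and Tlr2 rose by 1.13 and 1.07 on the log2 scale (limma adjusted p = 0.0186 and 0.0377). Both passed the filter through their level in MCK-TD, and without a filter neither was called (limma adjusted p = 0.0512 and 0.0893). The adaptor Myd88 rose from 1.99 and 1.88 to 4.58 and 4.35 FPKM (adjusted p = 0.0136), and the kinase regulator Ikbkg rose by 0.89 (adjusted p = 0.0354). Nfkbia, an NF-kB target and inhibitor named after its values were seen, was at 41.7 and 28.0 FPKM in Con-TD and 45.8 and 28.1 in MCK-TD (adjusted p = 0.880).

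Marker lists of several cell types that can make chemokines also differed between the groups. Over all rows tested, 24.3% were called higher and 6.45% were called lower, and each count below stands against these shares. Of 15 macrophage markers 13 could be tested and 10 rose, with 0 lower by limma (also 0 at an unadjusted p under 0.05). Among the 10, Mpeg1 and Cd14 passed the filter through their level in MCK-TD. Without a filter Mpeg1 was called (limma adjusted p = 0.0388) and Cd14 was at the threshold (0.05). Csf1r, C1qa and C1qb were then not called (limma adjusted p = 0.118, 0.0567 and 0.0611). The summed level of the 15 macrophage markers was 48.4 and 66.3 FPKM in Con-TD and 311 and 270 in MCK-TD. Of these, Ctss and Lgals3 had the largest changes, 3.39 and 3.14 on the log2 scale. The defining markers Cd68 and Csf1r rose by 2.76 and 0.97 on the log2 scale, and the resident macrophage markers Mrc1 and Cd163 changed by 0.07 and -0.02 and were not called. The macrophage sum was higher in MCK-TD A than in B, as were Ccl2, Ccl7, Ccl8 and also Ccl9, which fell, whereas Ccl6 was higher in B. Between the controls the macrophage sum was higher in G, as was Ccl8, but Ccl2, Ccl7, Ccl9 and Ccl6 were higher in F. An order between 2 libraries of a group cannot link these genes to macrophages. Of 10 endothelial markers, 2 fell by limma, and of 11 markers of fibro-adipogenic progenitors 3 fell (0 of either list was higher at an unadjusted p under 0.05). Their summed levels were 43.0 and 55.5 FPKM in Con-TD against 34.0 and 25.2 in MCK-TD for endothelium, and 342 and 445 against 283 and 316 for the progenitors. Of 7 markers of pericytes and smooth muscle, 6 could be tested and 3 fell, with sums of 94.6 and 121 against 59.0 and 51.0 FPKM. The parts of these cell types in the rise of Ccl2, Ccl6, Ccl7 and Ccl8 and in the fall of Ccl9 and Cxcl12 were not tested. Of 10 muscle fibre markers 8 fell, and of 6 satellite cell markers tested 2 rose (Itga7 and Sdc4, the latter also in the processing list), against 24.3% of all rows. Pax7, the defining satellite cell marker, was at 0.404 and 0.307 FPKM in Con-TD and 0.316 and 0.412 in MCK-TD and lay below the filter. Lymphocyte markers summed to under 1 FPKM in every library.

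The 6 calls depended on having all 4 libraries. When any 1 library was left out, limma called 0 of the 10 genes in either direction at an adjusted p under 0.05, and between 62 and 162 rows in the whole table in place of 3837. At an unadjusted p under 0.05, 4 or 5 of the genes were then higher and 1 to 3 lower. These fits assume that the lone library of a group varies like the libraries of the other group. The sizes moved less, from 1.72 to 2.21 for Ccl2, 1.51 to 1.98 for Ccl7, 1.42 to 2.08 for Ccl8, 0.94 to 1.17 for Ccl6, -1.77 to -0.92 for Ccl9 and -1.24 to -0.62 for Cxcl12. Scaling moved the balance of directions in the whole table. Calls were 79.0% higher as deposited, 52.1% by median of ratios and 48.8% by quantiles, and those scalings shifted the median change of all rows from 0.22 to -0.02 and -0.05. In both, 4 of the 10 chemokine genes rose and 4 fell, the latter being Ccl9, Cxcl12, Ccl11 and Cxcl14. Relative to the median of all rows as deposited, the changes were 1.75 for Ccl2, 1.53 for Ccl8, 1.52 for Ccl7, 0.83 for Ccl6, -0.72 for Ccl11, -0.80 for Cxcl14, -1.15 for Cxcl12 and -1.56 for Ccl9.

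**Figure D5:**
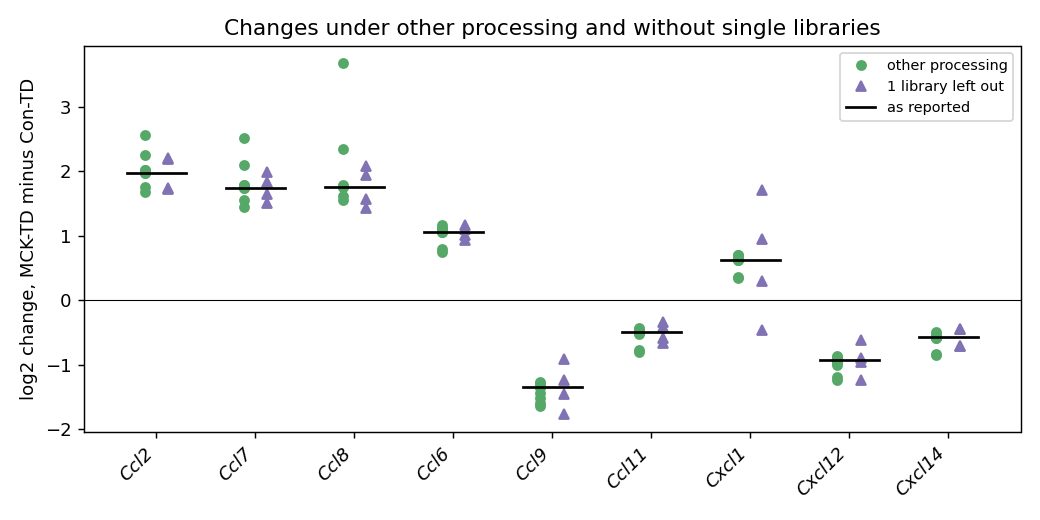
Log2 change of each tested chemokine gene as reported (black line), under other processing (green circles) and with 1 library left out (purple triangles). The sign of Cxcl1 turns when Con-TD G is left out, and that of the other 8 genes does not turn.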

How the data were processed

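RNA was extracted with Trizol and treated with DNase I, per the labels' protocols, and enriched for mRNA before sequencing, per the series design text. The deposited table holds 1 FPKM value per row and library, computed by the authors, and per the submitters' processing notes STAR, Cufflinks and the build mm9 were used, with no version or role stated. The gene annotation is not given in the sources used here. The 2 accompanying sheets of gene notes were not used.

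Values were analysed as log2(FPKM + 1) with limma 3.58.1 (R 4.3.3, moderated test with intensity trend, two-sided, group as the only term, 2 residual degrees of freedom), fitted over all 12474 rows with a mean of at least 1 FPKM and adjusted by Benjamini-Hochberg. A log2 change on this scale understates the change of low genes. The fit was tested on simulated data. Relative depth is the modal ratio of 2 libraries among rows under 0.2 FPKM. Where a symbol stood on more than 1 row the more abundant row was used. The share of 50-base words was computed over GENCODE M21 transcripts, and promoters came from RefSeq.

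The 10 members, the gene lists and the tests were chosen with earlier results of these data known. All 10 members are named. Of each list of chemokine system genes, up to 5 are named by rule, called genes by size of change, and then by mean level. Other genes, including the named cell type markers, were picked after their values were seen. Other pseudocounts, filters, scalings and variance models and leaving out each library were tried.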

Additional observations from a re-analysis of the deposited data

How the results depend on the processing

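Over the 9 tested chemokine genes and Cx3cl1, 115 values were recomputed under alternatives, of which 76 kept sign and side of the threshold, 33 lost a call (24 of them with a library left out), 5 gained one and 1 changed sign, Cxcl1, which ran from -0.46 without Con-TD G to 1.71 without Con-TD F. The 76 include the 1 value of Cx3cl1, which had no call to keep and only repeats the same difference. The cause of the shifts in the other genes was not tested, except that leaving out a library or filtering changes the number of libraries or rows. Of the 10 genes, 1 was called higher without a filter, and 1 over rows with a mean of at least 5 FPKM, where Ccl2, Ccl7 and Ccl8 are no longer tested. Genes called lower numbered 0 without a filter, 4 by median of ratios, 4 by quantiles, and 1 each when rescaled without the 20 most abundant genes, rescaled without mitochondrial and small RNA genes, or without the intensity trend. Other chemokines called higher and lower numbered 3 and 1 without a filter. They numbered 0 and 0 over rows of at least 5 FPKM, where Cxcl10, Cxcl16 and Ccl27a are no longer tested. Receptors called higher numbered 4 without a filter and 0 over rows of at least 5 FPKM (where Cxcr4 is no longer tested), by median of ratios and by quantiles. Receptors called lower numbered 1 in each of the last 3. Processing genes called higher numbered 0 without a filter and 1 with either scaling, and 1 was called lower with quantile normalization. Inflammatory signalling genes called higher numbered 1 without a filter, 1 over rows of at least 5 FPKM and 3 with either scaling. Tlr2, Tlr4, Myd88, Ikbkb and Ikbkg are not tested over rows of at least 5 FPKM. With a library left out, each of these higher and lower counts was 0 to 0, and all rows called ran from 62 to 162. Without a filter all rows called were 2043. The 2 libraries per group and an unknown absolute depth limit every value, and values under 1 FPKM most.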
